A study of Homo sapiens with 18 samples.

Results

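The genes of the TRAIL, FAS and death receptor system were followed across sorted EpCAM+ hepatocellular carcinoma (HCC) cells treated with disulfiram (DSF) or 5-fluorouracil (5-FU). The group held 10 genes, the ligand TNFSF10 (TRAIL), the receptors TNFRSF10A, TNFRSF10B, TNFRSF10D, FAS, TNFRSF1A and TNFRSF21, and the intracellular genes FADD, CASP8 and CFLAR, out of 19740 genes named on the array. They were found by name, through the RefSeq identifier or symbol of each probe, which gave 15 of 42405 probes. TNFSF10 had 2 probes, FAS 3 and CFLAR 3, and the other genes had 1 each. Where a gene had several probes, the probe with the highest mean over the 18 arrays represents it here, and the others are given beside it. A probe was tested where every array of some group read it well above background, which held for 14 of the 15 probes and at least 1 of every gene.

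The cells were Huh1 and Huh7, human HCC cell lines, each left as control or cultured with 0.1 µM DSF or 1 µM 5-FU for 48 hours, and the EpCAM+ cells were isolated by flow cytometry. The labels name the treatment first and the sort second without stating their order. The study's methods describe DSF as given together with copper chloride, and the treatment of the control cells is not given in the sources used here. RNA of each of the 6 groups was hybridised to 3 one-color arrays from independent experiments. A level is the log2 signal minus the 75th percentile of its array, so that 0 is a bright probe of that array, and a difference between groups is in the same log2 unit.

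Ligands of the tumor necrosis factor family signal cell death by gathering receptors that carry a cytoplasmic death domain. TRAIL binds the death receptors encoded by TNFRSF10A and TNFRSF10B, while the receptor encoded by TNFRSF10D has a truncated death domain and acts as a decoy. Engaged receptors recruit the adaptor FADD, which brings in procaspase-8 for activation, and the CFLAR product (c-FLIP) competes for the same complex. Hepatocyte-like cells are known to depend on a mitochondrial step downstream of caspase-8, and many HCC cells are resistant to TRAIL.

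All 9 markers listed for the sorted cells, EPCAM and AFP among them, were well above background on all 18 arrays. Of the markers of cell types the sort should not hold, 2 of 3 for leukocytes, 2 of 3 for endothelium and 0 of 3 for stroma were so on all 18 arrays, at levels between -5.02 and 1.00, and their part in the results was not tested. HNF4A, the dimmest of the 9 sorted-cell markers, read between -3.05 and -1.95, within that range. Between 59.2% and 70.4% of probes were well above background on each array. Line and slide nearly coincided, since slide 1 held the Huh1 control and 5-FU arrays with 2 Huh1 DSF arrays, and slide 2 held the Huh7 control and 5-FU arrays with 1 DSF array of each line. The other 2 Huh7 DSF arrays stood alone on slide 3.

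One property of the 5-FU arrays bears on every value after 5-FU. The 75th percentile stood -2.45 to -2.02 from the spike-in control probes on the 5-FU arrays, against -3.48 to -2.94 on the control and DSF arrays. Scaled on the 7 spike-in probes instead, the median of all probes after 5-FU moved to 0.795 in Huh1 and 0.935 in Huh7, from -0.0329 and -0.0486. Changes after 5-FU below are therefore changes against the other probes of the same array. After DSF the same medians moved to 0.136 in Huh1 and -0.0945 in Huh7, from 0.00202 and 0.0824. With the arrays scaled on their medians, the DSF value was -0.171 in Huh1 and 0.0635 in Huh7.

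Promoter stretches in the RefSeq table were found for 7 of the 10 genes. The 250 bases before the start are shown for 3 genes with different behavior, TNFSF10, which fell after DSF in both lines, TNFRSF1A, which fell after both drugs in Huh1, and TNFRSF21, which rose after both drugs in both lines (build GRCh38.p14, 5′ to 3′ on the gene's strand). Both strands were searched for 3 core promoter elements. These were the TATA box, spelled TATAAA, with its place near the start of many regulated genes. The CCAAT box was searched by the letters that name it, and the GC box, the element bound by SP1, was spelled GGGCGG. Capitals mark the matches, none of which overlapped another.
TNFSF10 (chr3:172523431-172523680, minus strand): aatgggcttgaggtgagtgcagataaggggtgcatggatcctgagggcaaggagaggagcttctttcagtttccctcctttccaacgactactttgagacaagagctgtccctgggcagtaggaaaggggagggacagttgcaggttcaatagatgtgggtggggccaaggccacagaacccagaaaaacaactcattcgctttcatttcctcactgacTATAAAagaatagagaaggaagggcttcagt
TNFRSF1A (chr12:6342077-6342326, minus strand): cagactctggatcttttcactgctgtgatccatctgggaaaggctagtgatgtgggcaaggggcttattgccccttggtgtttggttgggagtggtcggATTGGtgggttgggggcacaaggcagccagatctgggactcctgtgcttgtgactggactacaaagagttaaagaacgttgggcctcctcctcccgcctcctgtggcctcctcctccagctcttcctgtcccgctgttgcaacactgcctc
TNFRSF21 (chr6:47309906-47310155, minus strand): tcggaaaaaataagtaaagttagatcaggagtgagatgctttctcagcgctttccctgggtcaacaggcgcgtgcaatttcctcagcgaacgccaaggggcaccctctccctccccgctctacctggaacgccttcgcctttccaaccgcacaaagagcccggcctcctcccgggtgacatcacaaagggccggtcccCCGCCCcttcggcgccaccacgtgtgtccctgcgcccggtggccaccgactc
The TNFSF10 stretch held TATAAA beginning 31 bases before the start, letters that 3763 of 35116 promoters held somewhere in the same window. TNFRSF1A held CCAAT on the opposite strand 151 bases before the start (32% of promoters), and TNFRSF21 held the GC box on the opposite strand 52 bases before the start (42.6% of promoters). These matches are letters in a window, and the arrays give no measurement of binding there.

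TNFSF10 was the member with the strongest fall, and the fall followed DSF alone. Its levels in Huh1 were -0.28, 0.13 and 0.18 on the control arrays, -1.45, -1.49 and -1.48 after DSF, and 0.90, 7.7e-05 and -0.023 after 5-FU. In Huh7 they were 0.36, 0.39 and 0.46 in control, -1.09, -1.42 and -1.41 after DSF, and 1.31, 1.30 and 0.98 after 5-FU. All DSF arrays lay below all control arrays in both lines, whereas the Huh1 5-FU arrays overlapped the control arrays and the Huh7 5-FU arrays lay above them.

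The DSF treatment lowered TNFSF10 2.80-fold in Huh1 (log2 difference -1.48, SE 0.203, limma adjusted p = 3.92e-05) and 3.27-fold in Huh7 (-1.71, SE 0.203, limma adjusted p = 1.20e-05). The size of the fall did not differ detectably between lines (Huh7 minus Huh1, -0.23, 95% confidence interval -0.84 to 0.39, limma adjusted p = 0.553). After 5-FU, TNFSF10 rose in Huh7 (0.79, limma adjusted p = 0.00385), and the Huh1 difference of 0.28 did not pass (limma adjusted p = 0.273) and became -0.021 without 5-FU replicate 1. The second probe gave -1.46 in both lines after DSF, and 0.23 in Huh1 and 0.72 in Huh7 after 5-FU, with the same calls. Within slides the DSF difference was -1.48 in Huh1, and -1.50 in Huh7, where only 1 DSF array shared the slide with the controls. DSF and 5-FU left TNFSF10 apart by -1.77 in Huh1 and -2.51 in Huh7, both past the limma threshold.

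**Figure D1:**
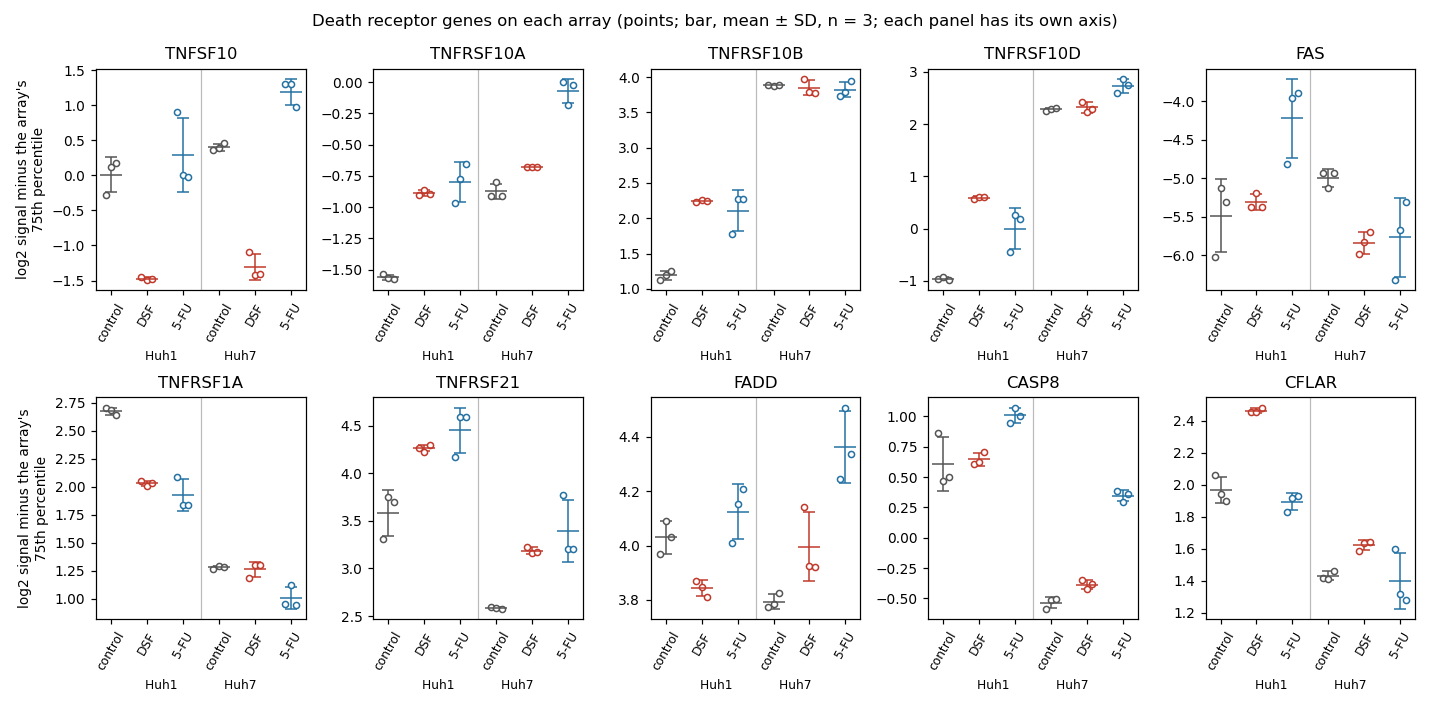
Level of each of the 10 genes (log2 signal minus the 75th percentile of the array, y axis) on all 18 arrays, by line and treatment (x axis). Points are arrays, and bars are the mean ± SD of 3 arrays. In the TNFSF10 panel all DSF arrays sit at or below -1.09 in both lines, and in the TNFRSF10B panel the Huh7 arrays sit between 3.73 and 3.98 whatever the treatment.

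The TRAIL receptor TNFRSF10B (DR5) differed more between the lines than after any treatment. Its levels in Huh1 were 1.12, 1.19 and 1.25 in control, 2.23, 2.26 and 2.24 after DSF, and 1.78, 2.28 and 2.27 after 5-FU. In Huh7 the 3 control arrays read 3.89, 3.87 and 3.89, the DSF arrays 3.98, 3.80 and 3.78, and the 5-FU arrays 3.73, 3.79 and 3.94. Every treated Huh1 array was above every Huh1 control array and below every Huh7 array, and the 3 Huh7 groups overlapped.

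The control cells of Huh7 stood 2.69 above those of Huh1 for TNFRSF10B (SE 0.111, limma adjusted p = 1.68e-11). In Huh1 the receptor rose by 1.05 after DSF (SE 0.111, limma adjusted p = 3.66e-06) and by 0.92 after 5-FU (SE 0.111, limma adjusted p = 1.23e-05). In Huh7 the differences were -0.032 after DSF (95% confidence interval -0.27 to 0.21) and -0.063 after 5-FU (-0.30 to 0.17), and neither passed. The lines differed in these responses by -1.08 for DSF and -0.98 for 5-FU (limma adjusted p = 1.02e-04 and 2.42e-04). On the spike-in scale the Huh7 value after 5-FU was 0.92 and passed, so that the flat Huh7 response to 5-FU holds only against the other probes of the array.

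The decoy receptor gene TNFRSF10D had the widest span of group means among the members, 3.69 on the log2 scale. Its Huh1 levels were -0.97, -0.92 and -0.97 in control, 0.57, 0.61 and 0.60 after DSF, and -0.45, 0.26 and 0.19 after 5-FU. Its Huh7 levels were 2.25, 2.28 and 2.30 in control, 2.43, 2.24 and 2.29 after DSF, and 2.59, 2.86 and 2.74 after 5-FU. All Huh7 arrays lay above all Huh1 arrays, and in Huh1 the arrays of the 3 treatments did not overlap.

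Untreated Huh7 cells stood 3.24 above Huh1 cells for TNFRSF10D (SE 0.139, limma adjusted p = 2.70e-11). DSF raised it by 1.55 in Huh1 (SE 0.139, limma adjusted p = 8.59e-07), against 0.038 in Huh7 (95% confidence interval -0.26 to 0.34), a difference between lines of -1.51 (limma adjusted p = 4.14e-05). After 5-FU the rise was 0.95 for Huh1 (limma adjusted p = 6.41e-05) and 0.45 for Huh7 (limma adjusted p = 0.0123), and the difference of -0.50 between lines did not pass (limma adjusted p = 0.0591). The Huh7 call was lost without 5-FU replicate 2. In Huh1, DSF exceeded 5-FU by 0.60 (limma adjusted p = 0.00264), which was 0.37 without 5-FU replicate 1 and turned to -0.099 on the spike-in scale. In Huh7 the same difference was -0.41 (limma adjusted p = 0.0190), a call lost with the slide as a block (-0.30, limma adjusted p = 0.267) and in 3 of 6 fits that left out 1 array.

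TNFRSF10A (DR4), the other death-inducing TRAIL receptor, rose after both drugs, with a smaller change after DSF in Huh7. In Huh1 it read -1.54, -1.57 and -1.58 in control, -0.90, -0.86 and -0.90 after DSF, and -0.97, -0.77 and -0.66 after 5-FU. In Huh7 it read -0.91, -0.80 and -0.91 in control, -0.68 on each of the 3 DSF arrays, and -0.0026, -0.18 and -0.024 after 5-FU. The treated arrays lay above the control arrays of their line throughout.

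The differences of TNFRSF10A were 0.68 after DSF and 0.76 after 5-FU in Huh1 (SE 0.0731, limma adjusted p = 4.63e-06 and 1.63e-06), and 0.81 after 5-FU in Huh7 (limma adjusted p = 3.77e-07). After DSF in Huh7 the difference was 0.20 (limma adjusted p = 0.0392), a call lost in 5 of 6 fits that left out 1 array, with the slide as a block (limma adjusted p = 0.209) and on the spike-in scale (0.020). The response to DSF was smaller in Huh7 by 0.48 (limma adjusted p = 0.00215), whereas that to 5-FU differed by 0.042 (95% confidence interval -0.18 to 0.26). Control Huh7 cells stood 0.69 above control Huh1 cells (limma adjusted p = 7.54e-07).

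FAS, the receptor for FAS ligand, was dim on these arrays. Its representative probe was well above background on 15 of 18 arrays, and the other probes on 7 and 4. The representative probe was so on only 2 of 3 arrays in each of the Huh1 control, Huh7 DSF and Huh7 5-FU groups. These are the lower groups of the FAS changes from control called below, so the sizes of those changes rest on values near background. In Huh1 the representative probe read -6.03, -5.12 and -5.31 in control, -5.38, -5.19 and -5.37 after DSF, and -4.81, -3.96 and -3.89 after 5-FU. In Huh7 it read -4.93, -5.13 and -4.93 in control, -5.98, -5.83 and -5.71 after DSF, and -6.33, -5.67 and -5.31 after 5-FU. In Huh1 the 5-FU arrays lay above the control arrays, and in Huh7 both treated groups lay below them.

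FAS rose by 1.27 after 5-FU in Huh1 (SE 0.280, limma adjusted p = 0.00185) and fell by 0.77 after 5-FU and by 0.85 after DSF in Huh7 (limma adjusted p = 0.0292 and 0.0237), and the Huh1 value after DSF was 0.18 (limma adjusted p = 0.648). The responses to 5-FU differed between lines by -2.04 (limma adjusted p = 0.00111), and by -0.77 with normexp background correction (limma adjusted p = 0.00109). With that correction the Huh1 rise was 0.21 and did not pass (limma adjusted p = 0.109). On the spike-in scale the Huh7 value after 5-FU turned to 0.21 and did not pass, and the same call was lost without control replicate 1, control replicate 3 or 5-FU replicate 1 (-0.49 without the last). The Huh7 call after DSF was lost in 4 of 6 fits that left out 1 array and with the slide as a block (limma adjusted p = 0.107). The second tested probe gave 0.82 in Huh1 and -0.44 in Huh7 after 5-FU, and neither passed. It was well above background on 3 of 3 Huh1 5-FU arrays but on only 1 of 3 arrays in each of the Huh1 control, Huh7 control and Huh7 5-FU groups.

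TNFRSF1A, which encodes the main receptor for tumor necrosis factor, fell in Huh1 after both drugs, where the 3 TRAIL receptors rose, although its 5-FU value turned in sign on the spike-in scale. Its Huh1 levels were 2.70, 2.68 and 2.64 in control, 2.05, 2.01 and 2.03 after DSF, and 2.09, 1.84 and 1.84 after 5-FU. Its Huh7 levels were 1.26, 1.29 and 1.28 in control, 1.18, 1.30 and 1.30 after DSF, and 0.96, 1.12 and 0.95 after 5-FU. The treated Huh1 arrays lay below the Huh1 control arrays but above every Huh7 array.

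TNFRSF1A fell by 0.65 after DSF and by 0.75 after 5-FU in Huh1 (SE 0.0716, limma adjusted p = 5.89e-06 and 1.51e-06), and by 0.27 after 5-FU in Huh7 (limma adjusted p = 0.00472). On the spike-in scale both 5-FU values turned, to 0.075 in Huh1, which did not pass, and to 0.71 in Huh7, which did. The Huh7 value after DSF was -0.016 (95% confidence interval -0.17 to 0.14). The lines differed by 0.63 in the response to DSF and by 0.48 in that to 5-FU (limma adjusted p = 2.43e-04 and 0.00196), the first of which did not pass on the spike-in scale (0.32, limma adjusted p = 0.165). In control cells TNFRSF1A was lower in Huh7 by 1.40 (difference -1.40, limma adjusted p = 2.02e-10).

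TNFRSF21 (DR6), a death domain receptor outside the TRAIL group, was the member that passed the test in the same direction after both drugs in both lines together with TNFRSF10A. In Huh1 it read 3.31, 3.75 and 3.70 in control, 4.27, 4.23 and 4.30 after DSF, and 4.17, 4.59 and 4.59 after 5-FU. In Huh7 it read 2.59, 2.58 and 2.57 in control, 3.23, 3.16 and 3.18 after DSF, and 3.77, 3.21 and 3.20 after 5-FU. All treated arrays lay above the control arrays of their line.

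TNFRSF21 rose after DSF by 0.68 in Huh1 (SE 0.153, limma adjusted p = 0.00221) and 0.60 in Huh7 (limma adjusted p = 0.00512), and by 0.87 and 0.81 after 5-FU (limma adjusted p = 3.23e-04 and 3.79e-04). The lines did not differ detectably in either response (-0.076, 95% confidence interval -0.54 to 0.39 for DSF, and -0.056, -0.52 to 0.41 for 5-FU). After DSF in Huh7 the value was 0.64 with the slide as a block and 0.43 on the spike-in scale, and passed in neither (limma adjusted p = 0.0577 and 0.144). Control Huh7 cells stood below control Huh1 cells (95% confidence interval of the difference -1.33 to -0.67, limma adjusted p = 3.34e-05).

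Of the intracellular genes, CASP8, which encodes the initiator caspase, responded to 5-FU. In Huh1 it read 0.87, 0.47 and 0.50 in control, 0.61, 0.63 and 0.71 after DSF, and 0.95, 1.07 and 1.01 after 5-FU. In Huh7 it read -0.59, -0.51 and -0.51 in control, -0.35, -0.43 and -0.38 after DSF, and 0.38, 0.30 and 0.36 after 5-FU. The 5-FU arrays were the highest of their line, by a narrow margin over control replicate 1 in Huh1.

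After 5-FU CASP8 rose in Huh1 (0.40, SE 0.0867, limma adjusted p = 0.00170) and in Huh7 (0.88, limma adjusted p = 8.30e-07), and the rise was larger in Huh7 by 0.48 (limma adjusted p = 0.00660). After DSF its differences were 0.037 and 0.15 (95% confidence intervals -0.15 to 0.22 and -0.037 to 0.34), and neither passed. Control Huh7 cells stood below control Huh1 cells (difference -1.15, limma adjusted p = 1.68e-08).

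FADD, the adaptor between the receptors and caspase-8, moved little. Its group means lay between 3.79 and 4.36 over the 6 groups. It rose after 5-FU in Huh7 by 0.57 (SE 0.0794, limma adjusted p = 2.55e-05). The other drug differences from control did not pass, with 0.094 after 5-FU in Huh1, -0.19 after DSF in Huh1 and 0.20 after DSF in Huh7 (limma adjusted p = 0.354, 0.0712 and 0.0502), although the lines differed in the response to DSF by 0.39 and in that to 5-FU by 0.48 (limma adjusted p = 0.0134 and 0.00429). The Huh7 value after DSF passed with the slide as a block (0.35, limma adjusted p = 0.0233), and the difference between lines for DSF was 0.078 on the spike-in scale and did not pass.

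CFLAR, which encodes the inhibitor c-FLIP in several isoforms, gave different answers on its 3 probes. The representative probe (NM_001127184) read 2.06, 1.94 and 1.90 in Huh1 control, 2.46, 2.45 and 2.48 after DSF, and 1.83, 1.92 and 1.93 after 5-FU. In Huh7 it read 1.42, 1.41 and 1.46 in control, 1.59, 1.64 and 1.65 after DSF, and 1.60, 1.32 and 1.28 after 5-FU. On this probe the DSF arrays were above the control arrays in both lines.

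The representative CFLAR probe rose by 0.50 after DSF in Huh1 (SE 0.0753, limma adjusted p = 9.77e-05) and by 0.19 in Huh7, where the adjusted p of limma, 0.04996, lay at the threshold and the call was lost in 6 of 6 fits that left out 1 array. After 5-FU it differed by -0.074 and -0.032, and neither passed. The probe for NM_003879 rose after 5-FU in Huh7 by 0.95 (SE 0.104, limma adjusted p = 2.46e-06), with 0.019 in Huh1, while the probe for NM_001202519 fell after 5-FU in Huh7 by 0.60 (limma adjusted p = 0.00349). The files do not say which isoforms each probe reads beyond these identifiers. Neither of those probes passed after DSF in either line.

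**Figure D2:**
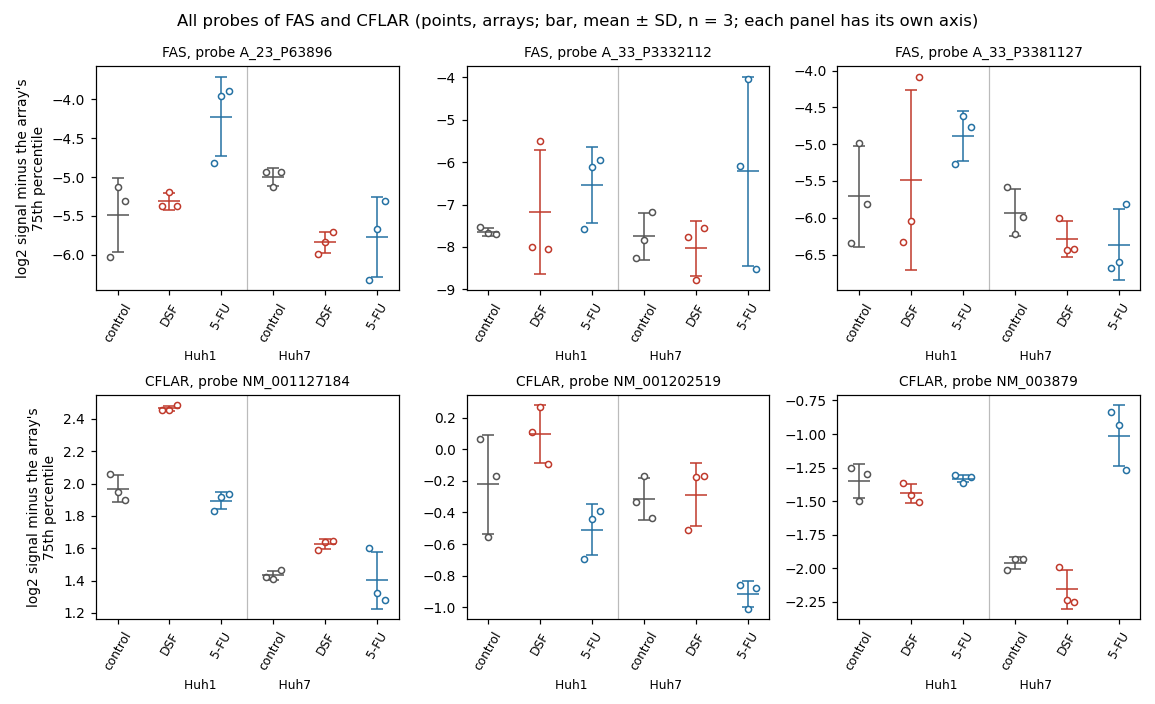
Level (log2 signal minus the 75th percentile of the array, y axis) of the 3 FAS probes (top) and the 3 CFLAR probes (bottom) by line and treatment (x axis). Points are arrays and bars the mean ± SD of 3 arrays. The FAS probes scatter widely, and after 5-FU in Huh7 the CFLAR probe NM_003879 sits above its control arrays while NM_001202519 sits below them.

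Counted over the members, DSF changed 7 of 10 genes in Huh1, 5 higher and 2 lower, where 44.3% of all 29760 probes tested passed the same threshold, 24% higher and 20.4% lower. In Huh7 DSF changed 5 of 10, 3 higher and 2 lower, against 46.9% of all probes, 27.4% higher and 19.4% lower. This Huh7 count was 2 both with the slide as a block and on the spike-in scale, and TNFSF10 passed in both. 5-FU changed 7 of 10 genes in Huh1, 6 higher and 1 lower, against 48.3% of all probes, 22.3% higher and 26% lower. In Huh7 it changed 8 of 10, 6 higher and 2 lower, against 57.2% of all probes, 27.4% higher and 29.8% lower. On the spike-in scale 9 of 10 passed as higher and 0 as lower after 5-FU in each line. That scale moves all probes of a 5-FU comparison up by the same amount. The share of all probes called on it is not given here, so these counts say nothing particular to the members. The medians of the members were 0.34 in Huh1 and 0.094 in Huh7 after DSF, and 0.58 and 0.51 after 5-FU, beside the medians of all probes given above.

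DSF changed 4 members in the same direction in both lines, TNFSF10 lower and CFLAR, TNFRSF10A and TNFRSF21 higher, where 17.6% of all probes did so, and 0 in opposite directions (7.01% of all probes). The Huh7 call of CFLAR was lost in 6 of 6 and that of TNFRSF10A in 5 of 6 fits that left out 1 array. With the slide as a block, TNFSF10 alone of these 4 passed in Huh7. 5-FU changed 5 members in the same direction in both lines, CASP8, TNFRSF10A, TNFRSF10D and TNFRSF21 higher and TNFRSF1A lower, where 29.3% of all probes did so, and FAS in opposite directions (5.22% of all probes). On the spike-in scale TNFRSF1A turned to 0.075 in Huh1 and 0.71 in Huh7, and FAS turned to 0.21 in Huh7. With normexp background correction the Huh1 call of FAS was lost (0.21, limma adjusted p = 0.109). Leaving out 1 array lost the Huh7 call of FAS in 3 of 6 fits and that of TNFRSF10D in 1 of 6. The drug comparisons of a line share its control arrays, so DSF and 5-FU values of a gene are not independent of each other.

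**Figure D3:**
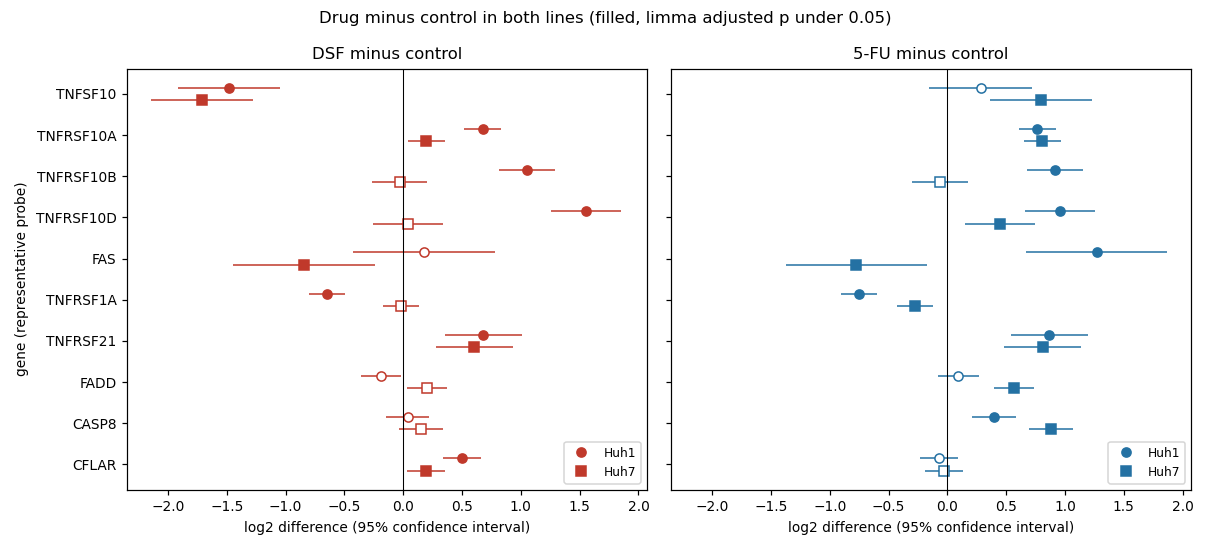
Log2 difference between drug and control (x axis) with its 95% confidence interval for each gene (y axis), DSF on the left and 5-FU on the right, circles for Huh1 and squares for Huh7, each from 3 arrays against 3. Filled symbols passed the limma threshold. TNFSF10 stands at -1.48 and -1.71 after DSF, and TNFRSF10B and TNFRSF10D are displaced in Huh1 but lie near 0 in Huh7 after DSF.

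Set directly against 5-FU, DSF left 6 of 10 members different in Huh1, 2 higher and 4 lower, against 49.3% of all probes, 28.7% higher and 20.6% lower. In Huh7 it left 7 of 10 different, 2 higher and 5 lower, against 60.6% of all probes, 35.6% higher and 25% lower. With the slide as a block the Huh7 count was 3, TNFSF10, TNFRSF10A and CASP8, all lower, and neither of the 2 higher members, TNFRSF1A and CFLAR, passed (limma adjusted p = 0.188 and 0.198). TNFSF10, FADD and CASP8 were lower after DSF than after 5-FU in both lines. FADD differed by -0.28 in Huh1 and -0.37 in Huh7, and CASP8 by -0.36 and -0.73 (limma adjusted p = 0.00908, 0.00113, 0.00329 and 5.39e-06). With the slide as a block the Huh7 difference of FADD was -0.22 and did not pass (limma adjusted p = 0.100). The representative CFLAR probe was higher after DSF, with a difference of 0.57 for Huh1 (limma adjusted p = 2.59e-05) and of 0.22 for Huh7 (limma adjusted p = 0.0192). The Huh7 call of CFLAR was lost with median scaling (limma adjusted p = 0.0927), with only the groups of the contrast fitted (limma adjusted p = 0.136) and in 4 of 6 fits that left out 1 array, and the mean of all CFLAR probes was -0.098. The CFLAR difference turned to -0.12 and -0.94 on the spike-in scale, where 0 members were higher and 8 in Huh1 and 10 in Huh7 were lower. That scale moves all probes of these comparisons down by the same amount. The share of all probes called on it is not given here, so the counts say nothing particular to the members. The CFLAR probes disagreed in Huh7 between the drugs. The probe for NM_003879 was lower after DSF, with group means of -2.16 after DSF and -1.01 after 5-FU. The probe for NM_001202519 was higher after DSF, with -0.29 and -0.92.

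**Figure D4:**
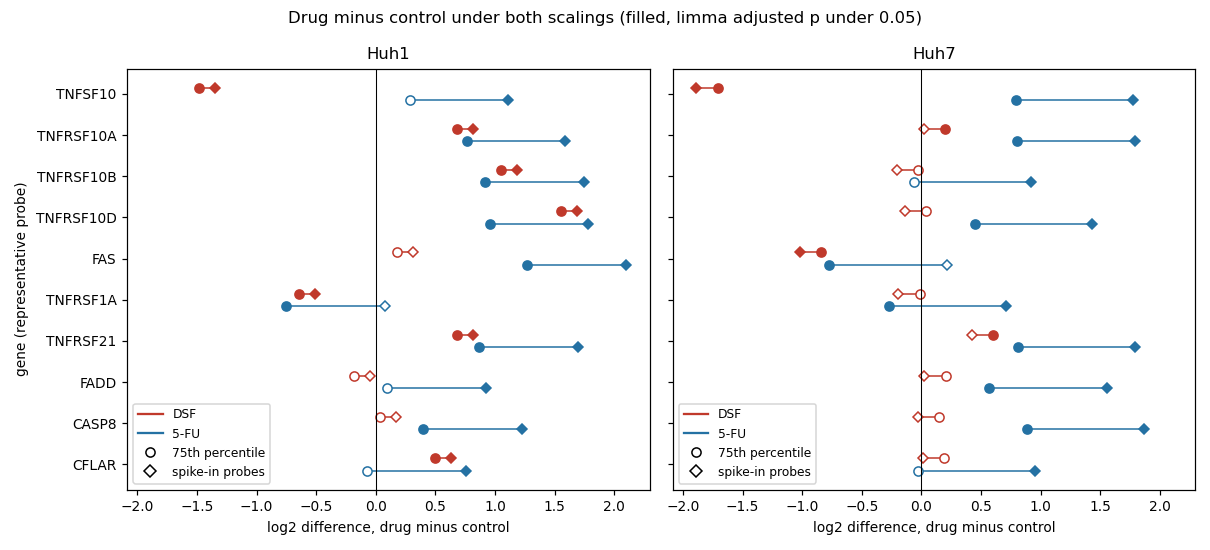
Log2 difference between drug and control (x axis) of each gene (y axis) in Huh1 (left) and Huh7 (right), with arrays scaled on their 75th percentile (circles) or on 7 spike-in probes (diamonds), each from 3 arrays against 3. Filled symbols passed the limma threshold. All 5-FU values move up on the spike-in scale, TNFRSF1A from -0.75 to 0.075 in Huh1, while the DSF values of TNFSF10 stay at -1.35 and -1.89.

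In control cells, 8 of 10 members differed between the lines, 3 higher and 5 lower in Huh7, where 70.9% of all probes differed, 34.6% higher and 36.3% lower. The TRAIL receptors TNFRSF10A, TNFRSF10B and TNFRSF10D were higher in Huh7, and TNFRSF1A, TNFRSF21, FADD, CASP8 and CFLAR were lower. The differences of FADD and CFLAR were -0.24 and -0.54. With the slide as a block, which rests on 1 Huh1 array on slide 2, the differences of TNFRSF10B and TNFRSF10D were 2.69 and 3.22 and passed, and that of FADD was -0.19 and did not (limma adjusted p = 0.236). The response to DSF differed between lines for 6 members (40.4% of all probes) and that to 5-FU for 5 (36.6% of all probes).

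Among 37 other genes of the extrinsic pathway, 32 were tested, and FASLG, LTA, TNFSF15, EDAR and RIPK3 were not, since no probe of theirs passed the filter. DSF raised 9 and lowered 9 of the 32 in Huh1, where 24% of all probes were called higher and 20.4% lower, and raised 11 and lowered 9 in Huh7, where 27.4% and 19.4% were. 5-FU raised 13 and lowered 7 in Huh1, beside 22.3% and 26% of all probes, and raised 13 and lowered 9 in Huh7, beside 27.4% and 29.8%. The medians were -0.067 and 0.081 after DSF and 0.16 and 0.13 after 5-FU in Huh1 and Huh7. Of the DSF calls, 5 of 18 in Huh1 and 8 of 20 in Huh7 were lost on the spike-in scale, and the genes below are given without marking these. With median scaling 4 were lost in Huh1 and 1 in Huh7, and 0 DSF calls turned in sign on either scale. Of the 5-FU calls, 7 of 20 in Huh1 and 5 of 22 in Huh7 turned from lower to higher on the spike-in scale. The 7 in Huh1 were all of the genes called lower there. On that scale 2 of the 5-FU calls in Huh1 and 5 in Huh7 did not pass. The genes of this list were not checked singly with the slide as a block.

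Among the inhibitors, BIRC3, which encodes a ubiquitin ligase of the receptor complex that restrains caspase-8, rose after DSF, with Huh1 at 2.55 (limma adjusted p = 6.08e-11) and Huh7 at 1.00 (limma adjusted p = 8.47e-07). TNFAIP3, whose product A20 edits ubiquitin in the same complex, rose as well, with Huh1 at 2.42 (limma adjusted p = 1.61e-10) and Huh7 at 0.30 (limma adjusted p = 0.0160). After 5-FU BIRC3 rose by 1.57 and 0.83 and BIRC2 by 0.71 and 0.52. CYLD, a deubiquitinase of the pathway, fell after 5-FU by 0.56 and 1.35, and the Huh1 value turned in sign on the spike-in scale. FAIM, an inhibitor of FAS signaling, went apart after DSF, at -0.44 in Huh1 and 0.47 in Huh7, both called.

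Among the adaptors and kinases, PEA15, which binds FADD and caspase-8, rose after DSF by 1.15 and 1.40 and after 5-FU by 1.00 and 1.55 in Huh1 and Huh7. DAXX, a partner of FAS, rose after DSF by 0.32 and 0.51 and after 5-FU by 0.36 and 0.80, and TRAF2 rose after DSF by 0.24 and 0.33. CRADD, an adaptor with a death domain, fell after DSF by 0.62 and 0.40 and after 5-FU by 0.40 and 0.94, and FAF1, a FAS-binding factor, fell after 5-FU by 0.33 and 0.68. The 5-FU values of CRADD and FAF1 turned in sign on the spike-in scale in both lines. After 5-FU, RIPK1 rose by 0.62 and 0.99, CASP10, the paralog of CASP8, by 0.71 and 0.73, and CASP8AP2 by 0.38 and 0.45.

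At the executioner and mitochondrial step, 5-FU raised CASP9 by 0.49 and 0.59 and DIABLO, an antagonist of the inhibitor of apoptosis proteins, by 0.39 and 0.27 in Huh1 and Huh7. CASP6 fell after DSF by 0.85 and 0.41 and after 5-FU by 0.34 and 0.37, and DFFB, the caspase-activated nuclease, fell after 5-FU by 0.33 and 1.33. APAF1, the core of the apoptosome, fell after DSF by 0.46 and 0.80, and after 5-FU it rose by 0.21 in Huh1 and fell by 0.25 in Huh7. On the spike-in scale the 5-FU values of CASP6 in both lines, of DFFB in Huh1 and of APAF1 in Huh7 turned in sign. MLKL, the effector of necroptosis, fell after DSF by 0.39 and 0.93. In control cells MLKL was lower in Huh7 than in Huh1 (difference -4.46), so its Huh7 fall lies between much dimmer values.

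Among the other ligands and receptors, TNFSF12 (TWEAK) fell after DSF by 1.01 and 1.30. TNFRSF11B (osteoprotegerin), a soluble receptor that also binds TRAIL, went apart after DSF, at -0.43 in Huh1 and 0.54 in Huh7, and rose after 5-FU by 0.59 and 1.94. TNFRSF25 (DR3) also went apart after DSF, at 0.44 and -0.92. TNFRSF6B, a soluble decoy for FAS ligand, fell after 5-FU by 0.75 and 1.28, and its Huh1 value turned in sign on the spike-in scale. NGFR passed as higher after DSF in both lines and is part of the counts above. In Huh1 it was not well above background in either group, so that call lies between dim values. In Huh7 it was well above background only after DSF, where it was at least 1.39-fold higher than control. The filter admits a probe through a bright group, so no p-value is given for NGFR.

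**Figure D5:**
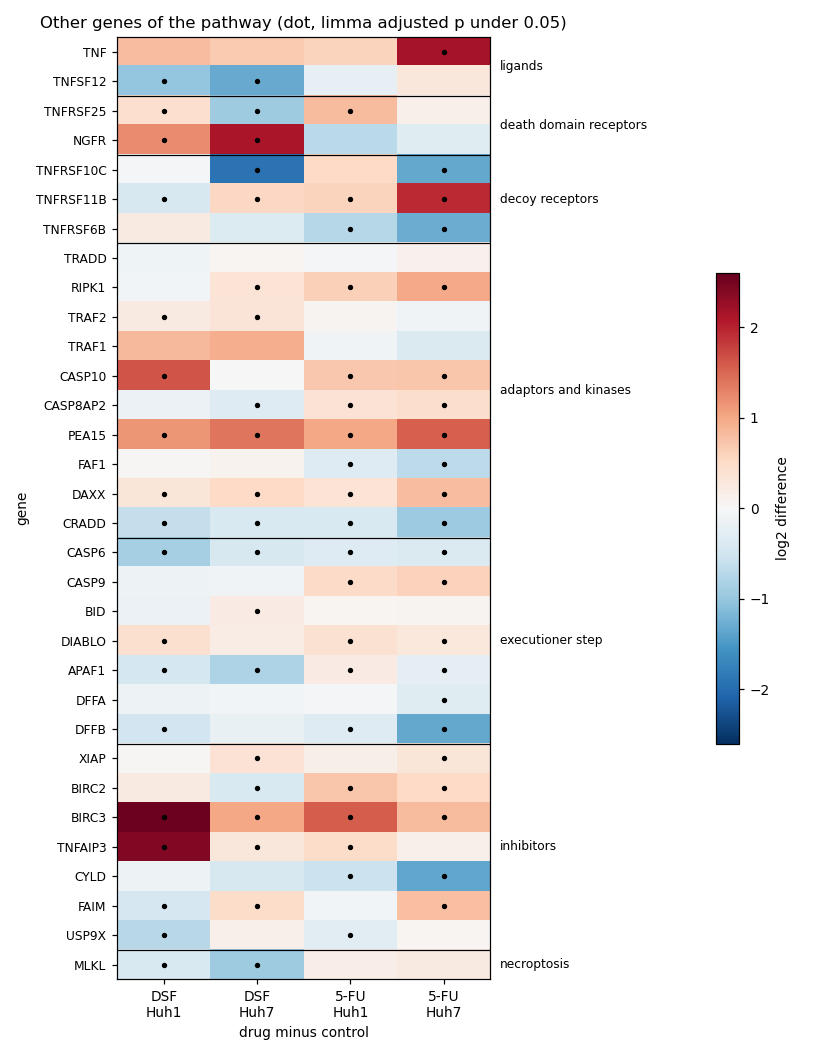
Log2 difference between drug and control (color) for the 32 tested genes of the pathway outside the members (rows, grouped by role), with 1 column for each drug and line, each from 3 arrays against 3. Dots mark values past the limma threshold. BIRC3 and PEA15 are higher in all 4 columns, and CRADD and CASP6 are lower in all 4.

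The 3 members with the widest spans of group means were TNFRSF10D, TNFRSF10B and TNFSF10, with 3.69, 2.69 and 2.67. Likeness to each was measured as the root mean square difference of the 6 group means, after centering each gene on its own mean, over 15746 named genes. The nearest to TNFRSF10D were UBALD2, SIPA1L2 and ARHGAP18, at 0.168, 0.217 and 0.231. The nearest to TNFRSF10B were SHC2, RAET1K and ADGRG6, at 0.0973, 0.131 and 0.139. The nearest to TNFSF10 were IGSF1, OLFML1 and SOWAHB, at 0.165, 0.213 and 0.251, and of these IGSF1 stood 0.17 from its own mean in Huh1 control, -1.12 after DSF and 0.27 after 5-FU. The measure covers 6 group means that share the arrays of all genes, and it is a description.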

How the data were processed

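Total RNA of EpCAM+ Huh1 and Huh7 cells was labeled with Cy3 and hybridised to one-color Agilent arrays. The deposited files hold the authors' Agilent Feature Extraction output (10.7.1.1 per the labels), with processed signal intensity per spot after background correction. The deposited value table holds ratios of each signal to the 75th percentile of its array, made by the authors with GeneSpring. Their log2 matched the log2 signals used here within 0.05 on 100% of probes, once the median difference of each array was removed. The check therefore covers agreement up to a constant per array, and the table was an alternative.

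Unflagged spots of a probe were averaged as log2 signal, and the 75th percentile of each array was subtracted (R 4.3.3). The 18 arrays of 6 groups were fitted with limma 3.58.1 (lmFit, contrasts.fit, eBayes), with Benjamini-Hochberg adjustment over the 29760 probes that every array of some group read well above background, and called under an adjusted p of 0.05. The study's methods name the Mann-Whitney test, whose smallest two-sided p with 3 arrays against 3 is 0.1, so the calls use the pooled spread of limma. The number of arrays limits the precision.

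Genes were named through RefSeq accessions of the probes or their symbols (25771 probes). Beside all 10 members, the text names the genes of the wider list called in both lines in the same or in opposite directions, and the 3 nearest genes to the 3 members of widest span. Some genes of the lists are not reported here. The members and lists were chosen with earlier results of these data known. Normexp (offset 50) used median signals, the column the files hold, in place of the mean signals planned. The fit was tested on simulated data for DSF against control in Huh1 (29760 probes), where it recovered 73% of changes of size 1 and 32% of size 0.5 (log2), with 8 false calls. Few of the simulated probes were changed, whereas 44.3% of probes were called in the data for this comparison. The recovered shares therefore do not give the sensitivity of the fit on the data. The simulated noise was independent between arrays, with no slide or line difference, so the 8 false calls give no error rate for the data. Figures were drawn with matplotlib.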

Additional observations from a re-analysis of the deposited data

Results flagged for a closer look

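The responses of the lines differed for 11 member comparisons, by the interaction term of the limma fit (Huh7 effect minus Huh1 effect, Benjamini-Hochberg adjustment over all probes). These were 6 of 10 members for DSF, where 40.4% of all probes passed, and 5 of 10 for 5-FU, where 36.6% did. For DSF the differences were -1.51 for TNFRSF10D (adjusted p = 4.14e-05), -1.08 for TNFRSF10B (1.02e-04), 0.63 for TNFRSF1A (2.43e-04), -0.48 for TNFRSF10A (0.00215), 0.39 for FADD (0.0134) and -0.30 for CFLAR (0.0346). For 5-FU they were -2.04 for FAS (0.00111), -0.98 for TNFRSF10B (2.42e-04), 0.48 for TNFRSF1A (0.00196), 0.48 for FADD (0.00429) and 0.48 for CASP8 (0.00660). The CFLAR difference was lost in 11 of 12 fits that left out 1 array, and the other 10 were kept in all 12. Other settings lost some of these 10. For DSF, FADD did not pass with quantile normalization (0.27, limma adjusted p = 0.0534) or on the spike-in scale (0.078, limma adjusted p = 0.806). TNFRSF1A for DSF did not pass on the spike-in scale (0.32, limma adjusted p = 0.165). The FAS value for 5-FU comes from a dim probe and was -0.77 with normexp background correction. The lines lay almost wholly on different slides, and slide 3 held 2 Huh7 DSF arrays and nothing else.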

How the results depend on the processing

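The member counts other than those for DSF in Huh7 and for DSF against 5-FU in Huh7 stayed within 1.5 times under each alternative run. The 5 members called after DSF in Huh7 became 3 with median scaling, 2 with spike-in scaling, 3 with no filter on dim probes, 3 with the mean of all probes of a gene, 2 with the slide as a block, and 2 without slide 3, an alternative chosen after seeing the data, and 2 to 4 when 1 array was left out. With the replicate number as a block they became 3, and the block changed 1 other member result, FAS in the difference of the DSF response (-1.02, limma adjusted p = 0.0174). Arrays of the same number correlated in their deviations at -0.093 to 0.104, with a median of -0.0245, so the numbers were not taken to pair the arrays. The 7 members that differed between DSF and 5-FU in Huh7 became 3 with the slide as a block and 3 without slide 3, and 5 to 7 when 1 array was left out. The wider list count for DSF in Huh7 fell from 20 to 13 with spike-in scaling.

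On the spike-in scale, values after 5-FU turned for TNFRSF1A (0.075 in Huh1, 0.71 in Huh7), FAS in Huh7 (0.21), TNFRSF10B in Huh7 (0.92) and CFLAR (0.75 in Huh1, 0.95 in Huh7). DSF against 5-FU turned in Huh1 for TNFRSF10B (-0.56), TNFRSF1A (-0.59), TNFRSF10D (-0.099) and CFLAR (-0.12), and in Huh7 for TNFRSF10B (-1.13), TNFRSF1A (-0.91) and CFLAR (-0.94). The median and quantile scalings turned only values that had not passed. Other turned values on the spike-in scale were DSF in Huh7 for TNFRSF10D (-0.14) and CASP8 (-0.028), the DSF line difference of CASP8 (-0.20) and the 5-FU line difference of TNFRSF21 (0.10). With median scaling, turned values were -0.14 for CASP8 after DSF in Huh1, -0.016 and -0.018 for TNFRSF10B between the drugs in Huh1 and Huh7, -0.043 for TNFRSF1A between the drugs in Huh1, and 0.077 for the DSF line difference of TNFRSF21. With quantile normalization they were -0.14 for FAS after DSF in Huh1, -0.023 for TNFRSF10D after DSF in Huh7 and -0.079 for TNFRSF10B between the drugs in Huh7. With normexp they were 0.019 for TNFRSF10B after DSF in Huh7 and 0.18 for FAS between the drugs in Huh7. The mean of all probes gave 0.10 for CFLAR after 5-FU in Huh7, -0.098 for CFLAR between the drugs in Huh7, and 0.0015 for FAS between the drugs in Huh7. TNFRSF10B after DSF in Huh7 was 0.095 with the slide as a block and without slide 3. When 1 array was left out, 23 member values turned, none of them called. The values they belong to ran from lowest to highest as follows. After DSF in Huh1, FAS ran from -0.094 to 0.36 and CASP8 from -0.035 to 0.16. After DSF in Huh7, TNFRSF10B ran from -0.095 to 0.0040, TNFRSF1A from -0.037 to 0.024 and TNFRSF10D from -0.018 to 0.078. After 5-FU, TNFSF10 in Huh1 ran from -0.021 to 0.44 and CFLAR in Huh7 from -0.13 to 0.029. Between the drugs, TNFRSF10B ran from -0.032 to 0.22 in Huh1 and from -0.032 to 0.092 in Huh7, and FAS in Huh7 from -0.35 to 0.16. The line difference for DSF ran from -0.16 to 0.061 for TNFRSF21 and from -0.016 to 0.18 for CASP8. That for 5-FU ran from -0.043 to 0.11 for TNFRSF10A, from -0.25 to 0.081 for TNFRSF21 and from -0.058 to 0.10 for CFLAR. For each turned value the cause was not tested. Signal over background limits FAS, NGFR and the untested ligands.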
